A study of Mus musculus with 6 samples.

Results

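The genes for cholesterol and fatty acid synthesis were followed in MS-5 cells, a mouse bone marrow stromal cell line, by RNA-seq. The set holds 34 genes listed by name, of 35968 genes with a transcript in the files. They fall into 5 regulators of the pathway, 19 genes of the sterol arm, 8 genes of the fatty acid arm and 2 genes for the efflux of cholesterol. MS-5 cells cultured alone (MS-5 only, libraries MO1, MO2 and MO3) were compared with MS-5 cells co-cultured for 24 hr with SKM-1 cells, a human acute myeloid leukaemia (AML) line (libraries MC1, MC2 and MC3). In co-culture 4 SKM-1 cells were plated per stromal cell, at 750000 SKM-1 cells per ml over confluent stromal cells, and the cells were separated and washed before RNA extraction. The labels name no deletion and no drug for either group and give both the same serum-supplemented medium, and the stromal cells come from 1 line co-cultured with 1 AML line. The labels number the replicates without saying whether they came from separate cultures, so the p-values measure the spread between these 6 libraries, which may be technical.

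Cells make cholesterol from acetyl-CoA through mevalonate, the isoprenoid farnesyl diphosphate and squalene, and then trim lanosterol step by step into cholesterol. Fatty acids are built from the same acetyl-CoA, lengthened by elongases and given double bonds by desaturases. Both arms are switched on by the SREBP transcription factors, which are held in the endoplasmic reticulum by the INSIG proteins when sterols are plentiful and escorted to the Golgi by SCAP when they are scarce. In bulk RNA of a co-culture, fewer cells of a type and less RNA per cell cannot be told apart.

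The 6 libraries held between 23978881 and 35694987 estimated counts. MO2 and MC3 stood apart from the other 4 libraries: 6.03% and 5.89% of their counts came from mitochondrial genes, against 10.5% to 13.1% in the others, and the pair separated along the second principal component (25.6% of the variance). Calls that differ without these libraries, or with a term for them in the model, are given for the genes described. Of 12 stromal markers, Col1a1, Sparc and Fn1 were abundant (1124 to 6605 CPM, counts scaled to a common library total, in every library), whereas Lum and Dcn were near 0 in every library. Of 12 leukocyte markers, 9 were measured well enough to test and 5 rose in co-culture; their summed level was 38.6 to 40.3 CPM in MS-5 only and 85.4 to 345 CPM in co-culture, with MC2 highest of the co-culture libraries for 8 of the 9. None was at 0 in all 6 libraries, and Irf8 was at 0 in all MS-5 only libraries. Irf8, Ptprc, Laptm5 and Spi1 had few counts in MS-5 only and could be tested only because they were high in co-culture. Tyrobp, Fcer1g and Cd33 did not reach the level needed for testing. MC2 was the highest co-culture library for 17 of the 34 lipid genes. The AML cells of the co-culture are human, while reads were counted on mouse transcripts. The part of leukocyte RNA in the lipid gene values, including human reads counted on mouse genes, was not tested.

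All 34 genes passed the filter on low counts. 1 of them, Hsd17b7, changed in co-culture, and it fell to 0.494 of its level in MS-5 only. Calls were made by edgeR's quasi-likelihood F-test at a Benjamini-Hochberg adjusted p under 0.1 over 13221 genes. In that test 4.38% of all genes were called, 3.71% higher and 0.666% lower in co-culture, so 1 of 34 is near the share for all genes. At an unadjusted p under 0.05, 3 of the 34 were higher and 2 were lower, against 14.3% of all genes in either direction. On the CPM scale, all 3 co-culture libraries exceeded all 3 MS-5 only libraries for 4 of the 34 (Srebf1, Insig2, Scd1 and Abca1), against 11.6% of all genes. All 3 were below for 2 (Hsd17b7 and Elovl6), against 9.6% of all genes. The other 28 overlapped between the groups on that scale. On TPM (counts scaled by transcript length and library total), Scd1 and Hsd17b7 stayed apart, while Srebf1, Insig2, Abca1 and Elovl6 overlapped. Fdps, Fdft1, Scd2 and Fads2 lay wholly higher in co-culture on TPM, and Mvk wholly lower. Below, overlap between the groups for single genes refers to CPM unless TPM is named. The smallest two-sided p that an exact permutation test allows with 3 libraries a group is 0.1.

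**Figure D1:**
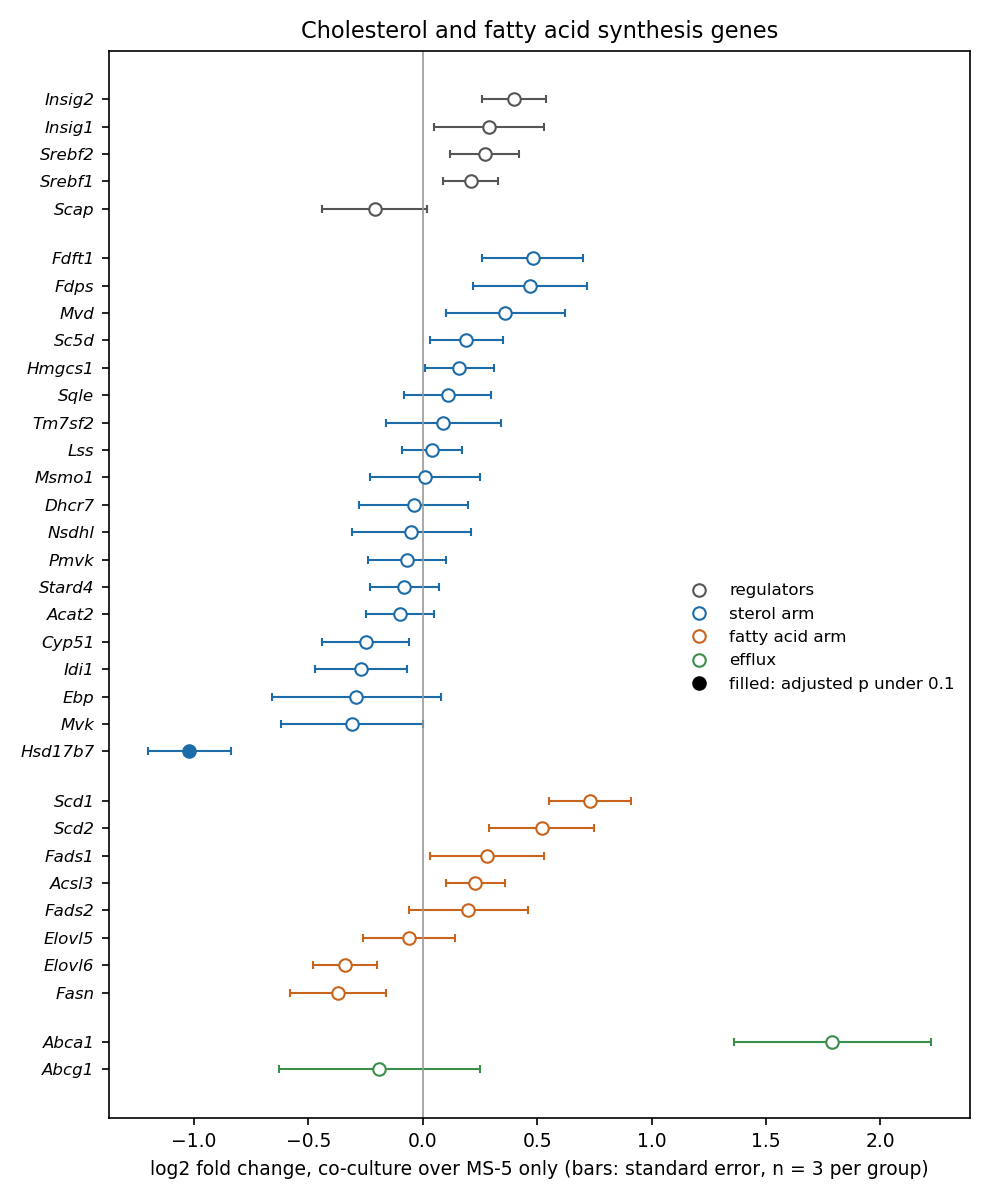
Log2 fold change of each of the 34 genes, co-culture over MS-5 only, on the x axis, with genes on the y axis grouped as regulators, sterol arm, fatty acid arm and efflux; points are edgeR estimates, bars are standard errors (n = 3 libraries per group) and the filled point is the 1 gene with an adjusted p under 0.1. The sterol arm sits around 0 between -0.31 and 0.48 apart from Hsd17b7 at -1.02, while the fatty acid arm runs from -0.37 for Fasn to 0.73 for Scd1.

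Among the regulators, the messages for the SREBP factors were slightly higher in co-culture without passing the test. Srebf1, which encodes the factor best known for driving fatty acid genes, was at 75.5, 81.1 and 80.6 CPM in MO1, MO2 and MO3 and at 97.7, 90.1 and 86.0 CPM in MC1, MC2 and MC3. The groups did not overlap, and MO2 and MC3 were the nearest pair of libraries (log2 fold change 0.21, SE 0.12, edgeR adjusted p = 0.512). Its transcript Srebf1-201 held 82.2% to 86.2% of the gene's counts in every library. Srebf2, which encodes the factor best known for driving cholesterol genes, was at 118, 129 and 145 CPM in MS-5 only and at 171, 165 and 135 CPM in co-culture. Here MC3 lay among the MS-5 only libraries (log2 fold change 0.27, SE 0.15, edgeR adjusted p = 0.521). Scap, the escort protein, was at 152, 95.4 and 140 CPM in MS-5 only and at 118, 127 and 89.1 CPM in co-culture (log2 fold change -0.21, SE 0.23, edgeR adjusted p = 0.795), with MO2 and MC3 the lowest library of each group.

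The INSIG pair retains SCAP and the SREBPs in the endoplasmic reticulum. Insig2 was at 46.3, 38.7 and 43.9 CPM in MS-5 only and at 62.3, 50.6 and 57.3 CPM in co-culture. All 3 co-culture libraries were above all 3 MS-5 only libraries, and the difference missed the threshold over all genes (log2 fold change 0.40, SE 0.14, edgeR adjusted p = 0.25). Insig1, itself a target of the SREBPs, was at 18.0, 29.8 and 33.1 CPM in MS-5 only and at 30.8, 32.6 and 35.4 CPM in co-culture. MO1 was the low library here and the other 5 lay close together (log2 fold change 0.29, SE 0.24, edgeR adjusted p = 0.692). A processed pseudogene, Gm37784, shares 189 bases with Insig1 at 98.9% identity, but held few counts (a mean of 1.28 against 855 for Insig1).

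In the sterol arm, 18 of 19 genes did not pass the test and 1, Hsd17b7, fell. The median log2 fold change of the arm was -0.04, against -0.02 for all genes tested, with 9 genes above 0 and 10 below. Leaving out 1 library at a time put that median between -0.15 (without MO2) and 0.09 (without MC3). The level in MS-5 only ran from 5.36 TPM (counts scaled by transcript length and library total) for Mvd to 57.6 TPM for Sqle, the squalene epoxidase that is a rate-controlling step.

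Hsd17b7 encodes the ketosteroid reductase that works with Msmo1 and Nsdhl to strip methyl groups from the sterol ring. The gene (ENSMUSG00000026675.12) lies on the minus strand at chr1:169949535-169969241 in GENCODE M21. It was at 14.3, 13.3 and 17.4 CPM in MO1, MO2 and MO3 and at 7.17, 8.35 and 6.75 CPM in MC1, MC2 and MC3. Every co-culture library was below every MS-5 only library, with a wide gap, as the plot of CPM by library shows. The mean of the MS-5 only libraries was 15.0 CPM ± 2.17 (SD, n = 3). For the co-culture libraries it was 7.42 CPM ± 0.828 (SD, n = 3), and the log2 fold change was -1.02 (SE 0.18, edgeR adjusted p = 0.0734). The values rest on 201 to 417 counts a library. The log2 ratio was -1.03 for MC1 and MC2 over MO1 and MO3 and -0.97 for MC3 over MO2, so the fall was about as large within each set of libraries. Without MO2 and MC3 the gene was also called (edgeR adjusted p = 0.077), whereas limma on log2(TPM + 0.5) did not call it (log2 fold change -1.02, adjusted p = 0.284). Leaving out 1 library at a time gave log2 fold changes from -1.11 to -0.90 and edgeR adjusted p from 0.0989 to 0.3. The call was kept only without MC2, and was lost without MO1, MO2, MO3, MC1 or MC3. Its partners in this series of reactions overlapped between the groups, with log2 fold changes of 0.01 for Msmo1 and -0.05 for Nsdhl. The ratio of Hsd17b7 to Nsdhl on the TPM scale was 0.376 ± 0.0351 (SD, n = 3) in MS-5 only and 0.185 ± 0.0532 (SD, n = 3) in co-culture. The transcript Hsd17b7-201 held 91.4% to 95.8% of the counts in each library, and no other gene shared a stretch of at least 150 bases with it at 90% identity or more.

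**Figure D2:**
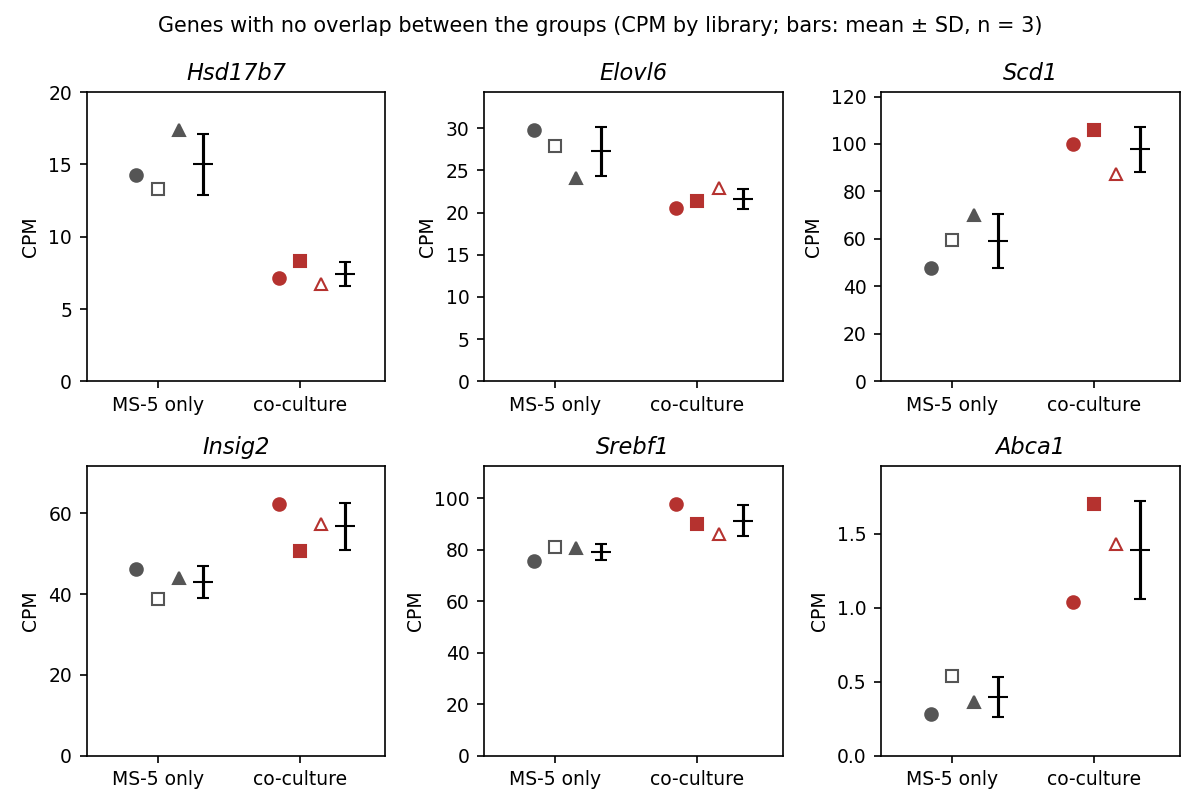
CPM of the 6 genes whose groups did not overlap, on the y axis from 0, for MS-5 only and co-culture on the x axis; circles, squares and triangles are replicates 1, 2 and 3, open symbols are MO2 and MC3, and bars are mean ± SD (n = 3). Hsd17b7 and Elovl6 lie lower in co-culture and Scd1, Insig2, Srebf1 and Abca1 higher; by edgeR only Hsd17b7, from 15.0 to 7.42 CPM, passed the test, and DESeq2's Wald test also called Scd1 and Abca1.

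The sequence before the start of Hsd17b7 is shown because it is the 1 gene that passed, and that of Hmgcs1 and Insig1 because they are textbook targets of the SREBPs. Capitals mark matches to any of 3 motifs on either strand, a match on the other strand being shown as its reverse complement. CCAAT is the box bound by NF-Y, which acts beside SREBP. The E-box was searched as CACGTG. The sterol regulatory element was searched as TCACNCCAC. No matches overlap in the sequences printed. The sequences are from RefSeq on GRCm38.p6 and run 5′ to 3′ towards the gene, with bases inside the gene's own annotated span removed. The first bases of the Hsd17b7 sequence also lie in a noncoding RNA on the other strand, 3110045C21Rik.
Hsd17b7, chr1:169969242-169969455, minus strand: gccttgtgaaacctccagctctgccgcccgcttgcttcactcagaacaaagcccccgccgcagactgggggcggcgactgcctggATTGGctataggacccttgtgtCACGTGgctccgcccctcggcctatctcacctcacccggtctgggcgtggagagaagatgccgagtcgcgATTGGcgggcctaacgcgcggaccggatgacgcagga
Hmgcs1, chr13:119690101-119690350, plus strand: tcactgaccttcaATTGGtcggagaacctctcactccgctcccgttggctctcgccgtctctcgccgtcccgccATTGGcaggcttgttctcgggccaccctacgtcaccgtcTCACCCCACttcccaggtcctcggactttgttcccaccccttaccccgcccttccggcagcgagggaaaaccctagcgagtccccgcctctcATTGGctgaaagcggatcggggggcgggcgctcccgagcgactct
Insig1, chr5:28071162-28071362, plus strand: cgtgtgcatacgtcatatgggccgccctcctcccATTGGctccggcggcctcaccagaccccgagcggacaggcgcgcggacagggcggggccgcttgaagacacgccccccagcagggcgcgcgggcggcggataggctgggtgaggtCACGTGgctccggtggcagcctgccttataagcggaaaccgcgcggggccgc

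Of the 34 genes, 26 matched an entry in the promoter table, 15 of them from the sterol arm and 5 from the fatty acid arm. CCAAT occurred within the 250 bases before a start in 21 of the 26 (80.8%), against 37.5% of 27025 genes, and in 14 of the 15 sterol arm genes. CACGTG occurred in 7 of the 26 (26.9%), against 6.86% of all genes. TCACNCCAC occurred in 1 of the 26, Hmgcs1, against 1.22% of all genes. Genes with several annotated starts count once if any start has the motif. The Hsd17b7 sequence as printed holds 2 CCAAT matches and 1 CACGTG. A match is a description of the letters and no evidence of binding.

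The first enzymes of the sterol arm overlapped between the groups. Acat2 makes acetoacetyl-CoA, and Hmgcs1 adds the next acetyl unit. Hmgcs1 was at 34.1 to 45.6 CPM in MS-5 only and 41.2 to 48.1 CPM in co-culture (log2 fold change 0.16, SE 0.15). Acat2 was at 50.4 to 55.8 CPM and 43.4 to 58.2 CPM, and is uncertain because its sequence shares 1477 bases with Acat3 at 97.7% identity and 445 bases with the neighbouring Tcp1. The kinases Mvk and Pmvk had log2 fold changes of -0.31 (SE 0.31) and -0.07 (SE 0.17), the decarboxylase Mvd 0.36 (SE 0.26) and the isomerase Idi1 -0.27 (SE 0.20). Idi1 is uncertain because the pseudogene Gm13502 shares 684 bases with it at 100% identity and held a mean of 18.5 counts against 484. Tm7sf2 overlaps Vps51, Acsl3 overlaps Utp14b and Fdps overlaps Gm43738 on the same strand, so their reads may have been split whatever the strand setting. Srebf1 overlaps Rai1, Mvd overlaps Gm20388 and Cyp51 overlaps Akap9 on the other strand, and the strand setting of the counting is not given in the sources used here.

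Fdps and Fdft1 make farnesyl diphosphate and squalene, at the point where isoprenoids are committed to sterols. They had the highest log2 fold changes of the arm, 0.47 (SE 0.25, edgeR adjusted p = 0.486) and 0.48 (SE 0.22, edgeR adjusted p = 0.4). Fdps was at 27.9, 26.0 and 36.1 CPM in MS-5 only and at 45.7, 50.8 and 28.3 CPM in co-culture. MC1 and MC2 were above all MS-5 only libraries and MC3 was not. Fdft1 was at 36.6, 34.9 and 48.5 CPM in MS-5 only and at 58.6, 67.3 and 41.9 CPM in co-culture, with the same libraries high. Both are uncertain: Fdps has 5 processed pseudogenes of at least 91.1% identity, of which Gm7513 held a mean of 110 counts against 1001 for Fdps, and 771 bases of Fdft1 are shared with the lysosomal protease gene Ctsb on the other strand, which held about 26600 counts.

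From squalene onwards, Hsd17b7 aside, the log2 fold changes ran from -0.29 to 0.19 and every gene overlapped between the groups. Sqle was at 98.4 to 146 CPM in MS-5 only and 111 to 145 CPM in co-culture (log2 fold change 0.11, SE 0.19). Lss, which closes squalene epoxide into lanosterol, had a log2 fold change of 0.04 (SE 0.13) and Cyp51, the lanosterol demethylase, -0.25 (SE 0.19). The reductase Tm7sf2 was at 0.09 (SE 0.25), the isomerase Ebp at -0.29 (SE 0.37), the desaturase Sc5d at 0.19 (SE 0.16), the last reductase Dhcr7 at -0.04 (SE 0.24) and the sterol carrier Stard4 at -0.08 (SE 0.15), all on the log2 scale. Ebp was at 62.5, 30.7 and 66.8 CPM in MS-5 only and at 51.8, 51.1 and 27.7 CPM in co-culture, so that MO2 and MC3 lay far below the other 4 libraries. MO2 and MC3 were each the lowest library of their group for 13 of the 19 sterol arm genes, against 36.9% of all genes tested.

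In the fatty acid arm, none of 8 genes passed the test by edgeR (Scd1 and Elovl6 had an unadjusted p under 0.05, and DESeq2 called Scd1), 5 had a log2 fold change above 0 and 3 below, and the median was 0.22, against -0.02 for all genes tested. That median was 0.07 without MO2, 0.11 without MC2, 0.13 without MC1 and 0.35 without MC3. Scd1 and Scd2 encode stearoyl-CoA desaturases, which make monounsaturated fatty acids, and lie near each other on chromosome 19. Scd1 was at 47.6, 59.6 and 70.3 CPM in MS-5 only and at 100, 106 and 87.3 CPM in co-culture. All co-culture libraries were above all MS-5 only libraries, with means of 59.1 CPM ± 11.4 (SD, n = 3) and 97.9 CPM ± 9.67 (SD, n = 3), and the difference missed the threshold (log2 fold change 0.73, SE 0.18, edgeR adjusted p = 0.111). Its log2 ratio was 0.83 for MC1 and MC2 over MO1 and MO3 and 0.55 for MC3 over MO2. Without MO2 and MC3 it was called (edgeR adjusted p = 0.0863), and DESeq2's Wald test also called it (adjusted p = 0.00468). Scd2, the most abundant gene of the set at 120 TPM ± 25.4 (SD, n = 3) in MS-5 only and 170 TPM ± 15.0 (SD, n = 3) in co-culture, was at 462, 459 and 627 CPM and then 805, 825 and 591 CPM. MC3 lay below MO3, so the groups overlapped (log2 fold change 0.52, SE 0.23, edgeR adjusted p = 0.381). A noncoding transcript of Scd1 shares 623 bases with Scd2 at 95.5% identity, and Scd3 shares 1053 bases with Scd1 at 91.4% identity but held a mean of 6.91 counts. How far reads were split between Scd1 and Scd2 was not tested.

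Fads1 and Fads2 desaturate polyunsaturated fatty acids and had log2 fold changes of 0.28 (SE 0.25) and 0.20 (SE 0.26). Fads1 was at 242, 185 and 280 CPM in MS-5 only and at 334, 319 and 205 CPM in co-culture. Again MC1 and MC2 were high and MC3 was not. Acsl3, which activates fatty acids for lipid droplets, had a log2 fold change of 0.23 (SE 0.13). Fasn, the fatty acid synthase, was at 253, 185 and 166 CPM in MS-5 only and at 181, 151 and 136 CPM in co-culture, with MO1 the high library (log2 fold change -0.37, SE 0.21, edgeR adjusted p = 0.513; -0.15 without MO1). Elovl6, which lengthens the palmitate that Fasn makes, was at 29.8, 27.9 and 24.1 CPM in MS-5 only and at 20.5, 21.4 and 22.9 CPM in co-culture. The groups did not overlap, with MO3 and MC3 the nearest pair (log2 fold change -0.34, SE 0.14, edgeR adjusted p = 0.344). Elovl5, which lengthens polyunsaturated chains, was at -0.06 (SE 0.20) on the log2 scale.

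Within each library, the fatty acid arm was set against the sterol arm by the ratio of their summed TPM, which does not depend on scaling between libraries. The ratio was 1.08, 1.08 and 1.04 in MO1, MO2 and MO3 and 1.30, 1.30 and 1.33 in MC1, MC2 and MC3. The groups did not overlap, MO2 and MC3 fell in with their own groups, and the means were 1.07 ± 0.0224 (SD, n = 3) and 1.31 ± 0.0181 (SD, n = 3). The sterol arm summed to 371 TPM ± 56.3 (SD, n = 3) in MS-5 only and 372 TPM ± 28.9 (SD, n = 3) in co-culture, and the fatty acid arm to 396 TPM ± 62.7 (SD, n = 3) and 488 TPM ± 44.9 (SD, n = 3). Without Scd1 and Scd2 the groups came closer: the ratio was 0.751, 0.696 and 0.654 in MS-5 only, against 0.755, 0.761 and 0.764 in co-culture, so that MO1 and MC1 were nearly equal. Together Scd1 and Scd2 made up 34.4% ± 3.6 (SD, n = 3) of the arm's TPM in MS-5 only and 42.0% ± 0.486 (SD, n = 3) in co-culture. On summed counts in place of TPM, the ratio was 2.02 to 2.18 in MS-5 only and 2.45 to 2.61 in co-culture. Without Scd1 and Scd2, however, the groups overlapped on summed counts, at 1.34, 1.11 and 1.06 in MO1, MO2 and MO3 against 1.25, 1.17 and 1.14 in MC1, MC2 and MC3, so the separation of that ratio did not hold on both scales. With each gene weighted equally, the mean log2 CPM of the fatty acid arm exceeded that of the sterol arm by 2.05 to 2.21 in MS-5 only and by 2.30 to 2.34 in co-culture. The variants of this ratio, and the use of summed counts, were chosen after the gene values were seen, and no test was made on a sum over chosen genes.

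**Figure D3:**
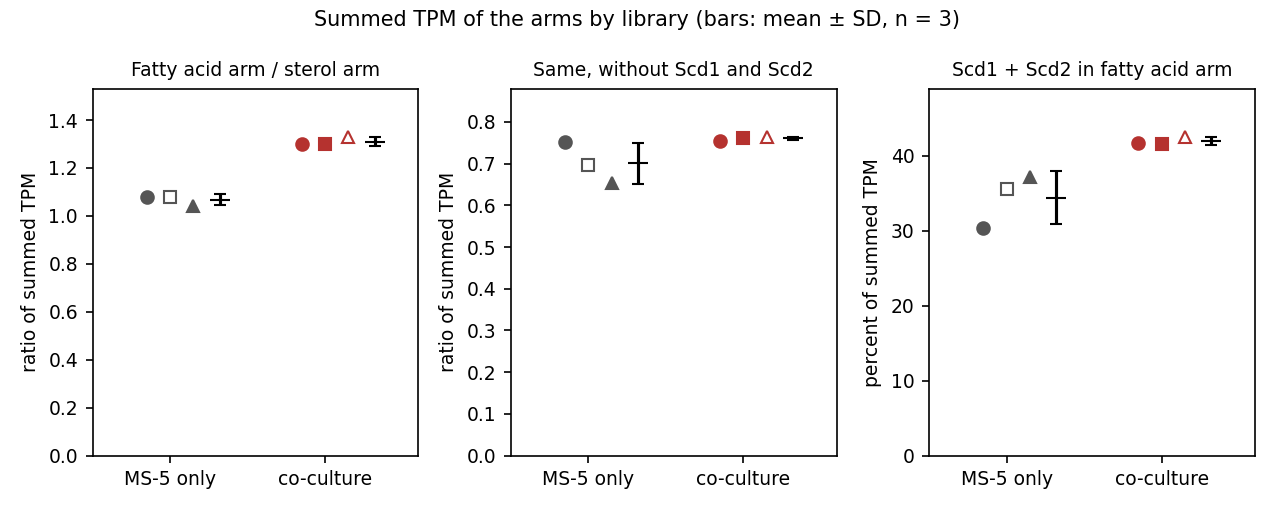
Left, the summed TPM of the fatty acid arm divided by that of the sterol arm; middle, the same ratio without Scd1 and Scd2; right, the percent of the fatty acid arm's TPM held by Scd1 and Scd2; all by library with y axes from 0, circles, squares and triangles for replicates 1, 2 and 3, open symbols for MO2 and MC3, and bars for mean ± SD (n = 3). The left ratio is 1.04 to 1.08 in MS-5 only and 1.30 to 1.33 in co-culture, and the middle one narrows to 0.654 to 0.751 against 0.755 to 0.764, and overlaps between the groups on summed counts.

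Inside the fatty acid arm, the ratio of Scd1 and Scd2 together to Fasn was 2.84, 3.21 and 6.21 in MS-5 only, against 6.99, 9.01 and 6.22 in co-culture, on the TPM scale. MO3 and MC3 were all but equal there, and on summed counts the ratio was 2.01 to 4.21 and 4.98 to 6.18. The ratio of Scd2 to Scd1 was 8.57, 6.52 and 7.24 in MS-5 only, against 6.50, 4.28 and 4.53 in co-culture, with MO2 and MC1 touching. On summed counts the groups overlapped, at 9.72, 7.71 and 8.92 in MO1, MO2 and MO3 against 8.04, 7.76 and 6.77 in MC1, MC2 and MC3. The short transcript Scd1-203 (750 bases) held 6.81% of the counts of Scd1 in MC2 and at most 1.3% in the other libraries, and weighs more in TPM than in counts. Likewise, Fads2-203 (879 bases) held 9.01% of the counts of Fads2 in MC2, 2.97% in MC3 and at most 0.85% in MS-5 only and MC1. Fads2 was at 60.3 TPM in MC2 and at 39.5 to 51.4 TPM in the other libraries. Fads2 over Fads1 and Elovl6 over Elovl5 overlapped between the groups.

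For cholesterol efflux, Abca1 and Abcg1 encode transporters that pass cholesterol to lipoproteins and are induced by LXR when sterols accumulate. Both were scarce in these cells. Abca1 was at 0.279, 0.541 and 0.363 CPM in MS-5 only and at 1.04, 1.70 and 1.43 CPM in co-culture. All co-culture libraries were above all MS-5 only libraries, on 7 to 17 counts a library in MS-5 only and 34 to 49 in co-culture, and the difference missed the threshold (3.46-fold, log2 fold change 1.79, SE 0.43, edgeR adjusted p = 0.107). It was called without MO2 and MC3 (edgeR adjusted p = 0.0929) and by DESeq2's Wald test (adjusted p = 0.0202). It passed the filter on low counts only through the co-culture libraries. The excess over the MS-5 only mean was 1.56 times as high in MC2, the library with the most leukocyte marker counts, as the mean of MC1 and MC3, and the part of leukocyte RNA was not tested. Abcg1 was at 0.519, 0.700 and 0.544 CPM in MS-5 only and at 0.732, 0.374 and 0.437 CPM in co-culture, with no order between the groups (log2 fold change -0.19, SE 0.44, edgeR adjusted p = 0.942). The bases before Abca1, shown because it had the highest fold change of the set, hold 1 CACGTG, in capitals, and no CCAAT.
Abca1, chr4:53159896-53160145, minus strand: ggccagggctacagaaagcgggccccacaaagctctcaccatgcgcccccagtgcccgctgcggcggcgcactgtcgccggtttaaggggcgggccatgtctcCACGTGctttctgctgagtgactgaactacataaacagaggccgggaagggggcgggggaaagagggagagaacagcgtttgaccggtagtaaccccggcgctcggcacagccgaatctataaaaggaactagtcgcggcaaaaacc

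With a term for MO2 and MC3 in the model, 14 of the 34 genes were called, 9 higher and 5 lower in co-culture. In that fit 13.9% of all genes were called higher and 16.4% lower, so the 9 of 34 lie above the share for all genes and the 5 of 34 near it. The fatty acid arm had 6 of 8 genes called: Scd1, Scd2, Fads1, Fads2 and Acsl3 higher and Elovl6 lower. The sterol arm had 6 of 19 called: Fdps and Fdft1 higher, and Mvk, Cyp51, Hsd17b7 and Ebp lower. Insig2 and Abca1 were the other 2, both higher. The fold changes themselves hardly moved. Ebp went from -0.29 (SE 0.37) to -0.27 (SE 0.07) and Scd2 from 0.52 (SE 0.23) to 0.51 (SE 0.13) on the log2 scale, while their standard errors shrank. No label names a batch for MO2 and MC3, and the term was set with the libraries' values known. Without the pair, on 2 libraries against 2, 4 of the 34 were called (Hsd17b7 lower; Scd1, Abca1 and Fdps higher), against 13% of all genes. DESeq2's Wald test on all 6 libraries called 3 of the 34 (Hsd17b7 lower; Scd1 and Abca1 higher), against 9.59% of all genes.

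The direction of the difference was compared between the 2 sets of libraries, which share none. For 32 of the 34 genes (94.1%), MC1 and MC2 over MO1 and MO3 and MC3 over MO2 had the same sign, against 78.3% of all genes tested. Sqle and Nsdhl were the exceptions, at 0.21 and -0.06 and at 0.05 and -0.35. All 8 genes of the fatty acid arm and 17 of 19 of the sterol arm had the same sign in both sets. Scd1, Scd2, Insig2, Abca1 and Hsd17b7 kept at least 0.32 on the log2 scale in both sets. By contrast, Srebf1, Srebf2, Hmgcs1, Mvd, Fdps, Sc5d and Acsl3 were above 0.2 in the first set and at 0.04 to 0.12 in the second.

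**Figure D4:**
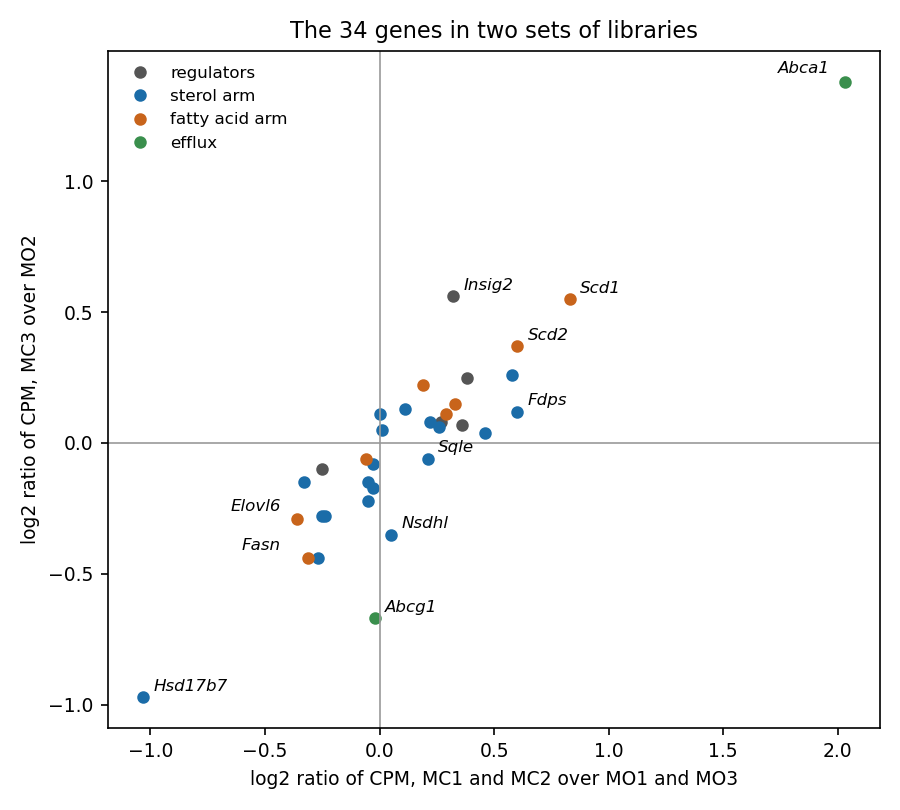
Log2 ratio of CPM of each of the 34 genes for MC1 and MC2 over MO1 and MO3 (x axis) and for MC3 over MO2 (y axis), coloured as regulators, sterol arm, fatty acid arm and efflux. Of the 34, 32 lie in the quadrants of equal sign, with Hsd17b7 at -1.03 and -0.97 and Abca1 at 2.03 and 1.38, and Sqle and Nsdhl lie in the others.

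Around these genes, 75 others of lipid metabolism were listed, of which 65 could be tested and 3 were called: Vldlr and Acsl4 rose and Acsl1 fell. Against 4.38% of all genes, 3 of 65 is near the background. The median log2 fold change of the 65 was -0.02, with 31 above 0 and 34 below. The co-culture libraries all exceeded the MS-5 only libraries for 7 of them and all lay below for 7, against 11.6% and 9.6% of all genes. The 10 not tested were Cyp27a1, Cyp7b1, Ch25h, Idi2, Elovl3, Elovl4, Scd3, Acsl6, Mgll and Fabp3, all at few or no counts.

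Acsl4 and Acsl1 activate long-chain fatty acids to acyl-CoA, Acsl4 with a preference for arachidonate. Acsl4 was at 47.2, 70.9 and 52.8 CPM in MS-5 only and at 90.4, 102 and 114 CPM in co-culture (log2 fold change 0.84, SE 0.19, edgeR adjusted p = 0.091). Acsl1 was at 89.1, 80.5 and 80.0 CPM in MS-5 only and at 60.0, 59.4 and 57.3 CPM in co-culture (log2 fold change -0.50, SE 0.11, edgeR adjusted p = 0.0931). Neither gene's groups overlapped on the CPM scale, while both genes overlapped on the TPM scale. The levels changed order: the ratio of Acsl4 to Acsl1 on the TPM scale was 0.391, 0.618 and 0.493 in MS-5 only, against 1.10, 1.26 and 1.44 in co-culture. Both calls were lost whichever of the 6 libraries was left out, with edgeR adjusted p of at least 0.149 for each gene. Without MO2 and MC3 together both were called (edgeR adjusted p = 0.077 for Acsl4 and 0.0792 for Acsl1), as with the term for the pair (0.011 and 0.0128). With a block for replicate number neither was called (edgeR adjusted p = 0.194 for Acsl4 and 0.461 for Acsl1). Nor did limma on log2(TPM + 0.5) call them (adjusted p = 0.665 and 0.825).

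Vldlr encodes a receptor for triglyceride-rich lipoproteins. It was at 0.0399, 0.0955 and 0 CPM in MS-5 only and at 0.885, 4.94 and 1.43 CPM in co-culture. The log2 fold change was 5.49 (SE 1.06, edgeR adjusted p = 0.0747). Vldlr passed the filter on low counts only through the co-culture libraries, where it was high. It had 4 counts in all MS-5 only libraries together and 197 in co-culture, 119 of them in MC2. The pooled counts gave a ratio of 42.4 with a 95% interval from 16.3 to 157. That interval is an exact binomial one for counting error only and leaves out the spread between libraries. The excess in MC2 was 4.41 times the mean of MC1 and MC3, and MC2 was also the library where leukocyte markers were highest, for instance Spi1 at 56.4 CPM against 8.33 and 10.3 CPM. The call was kept without MC1 or MC3 and lost without MO1, MO2, MO3 or MC2 (edgeR adjusted p from 0.0667 to 0.3). It was also called without MO2 and MC3 together (edgeR adjusted p = 0.0792) and with the term for them (edgeR adjusted p = 0.0227). The part of leukocyte RNA in Vldlr was not tested.

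Of the other listed genes whose groups did not overlap, 3 more were named for the size of their fold change. Acss2, which makes acetyl-CoA from acetate in the cytosol, was at 6.11, 6.84 and 8.66 CPM in MS-5 only and at 15.7, 16.7 and 10.5 CPM in co-culture (log2 fold change 0.99, SE 0.24, edgeR adjusted p = 0.111). Hilpda, a lipid droplet protein that blocks lipolysis, was at 5.39, 4.30 and 5.98 CPM and then 13.2, 9.60 and 8.70 CPM (log2 fold change 1.01, SE 0.24, edgeR adjusted p = 0.102). Cd36, a fatty acid translocase, was at 2.71, 2.99 and 2.90 CPM and then 5.34, 7.52 and 3.52 CPM (log2 fold change 0.93, SE 0.32, edgeR adjusted p = 0.245). None of these 3 passed by edgeR, while DESeq2's Wald test called Acss2 (adjusted p = 0.00698) and Hilpda (adjusted p = 0.00508) and not Cd36 (adjusted p = 0.117). Without MO2 and MC3, edgeR called all 3 higher (adjusted p = 0.077 for Acss2, 0.081 for Hilpda and 0.0847 for Cd36), as it did with the term for the pair (adjusted p = 0.0201, 0.0158 and 0.0711). The excess in MC2 was 2.98 times the mean of MC1 and MC3 for Cd36, 1.62 times for Acss2 and 0.762 times for Hilpda, and the part of leukocyte RNA was not tested.

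All 10 genes tested for the isoprenoid branches, which draw on the same mevalonate for dolichol, ubiquinone and protein prenylation, had log2 fold changes below 0 (-0.58 to -0.09, median -0.14), against 6945 of all 13221 genes tested, and none passed the test. Of these 10, 9 were below 0 without MO1, without MO2 or without MC3. With the term for MO2 and MC3, 4 of the 10 were called lower (Dhdds, Fnta, Pdss1 and Zmpste24), against 16.4% of all genes, and without the pair 0 were. Of 8 tested genes for the processing of SREBPs, 7 were below 0 (median -0.11) and none passed, and without MO1 there were 4 above 0 and 4 below (median -0.01). Without the pair 1 of the 8 was called lower (Erlin1).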

How the data were processed

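Gene expression of the stromal line was measured by RNA-seq in 3 libraries of MS-5 only and 3 of co-culture, grouped by GEO's titles. Per the submitters' processing notes, reads were checked with FastQC 0.11.7 and quantified with kallisto 0.43.0 (mm10). The deposited files give, per transcript, an estimated count and a TPM value made by the authors; the strand setting is not given in the sources used here. Transcripts were matched to GENCODE M21 by version and length (116728 of 118489; the rest held 0.476% to 0.562% of counts). Counts were summed per gene, rounded and tested with edgeR 4.0.16 (TMM, quasi-likelihood) in R 4.3.3; the authors' sleuth was not used here. CPM values are scaled by TMM. Alternatives were DESeq2 1.42.0, limma 3.58.1 on log2(TPM + 0.5), other filters, scalings and thresholds, a replicate block, a term for MO2 and MC3, and leaving libraries out. Scripts were tested on simulated data. Copies were sought by blastn over at least 150 bases at 90% identity.

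The genes and lists were chosen with earlier results of these data known. Values in every library were given for the regulators, the genes with an adjusted p under 0.1 and those whose groups did not overlap, and, among other lipid genes, for those called and the 5 with the largest fold change among those not overlapping. Values of Ebp, Scd2, Fdps, Fdft1, Fads1, Fasn and Abcg1 were added after they were seen. Library totals were 23978881 to 35694987 counts; the median standard error of the 34 genes was 0.20 on the log2 scale, and the estimates cover these libraries only.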

Additional observations from a re-analysis of the deposited data

How the results depend on the processing

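Of the 34 genes, 25 kept the sign of their log2 fold change under all 17 alternatives and Abca1 under the 14 in which it was fitted, since it fell below the TPM minimum of the 3 limma fits. The other 8, Abcg1 among them with the same 14, changed sign under at least 1. With limma on TPM values, at any of the 3 pseudocounts, the log2 fold change was -0.01 for Lss, -0.05 for Tm7sf2, -0.01 for Msmo1 and 0.16 or 0.17 for Dhcr7. Msmo1 was also at -0.01 with at least 5 counts in 3 libraries. Without MO2 and MC3, Nsdhl was at 0.07 and Abcg1 at 0.09. Leaving out 1 library at a time gave -0.01 to 0.11 for Lss, -0.01 to 0.33 for Tm7sf2, -0.15 to 0.24 for Msmo1, -0.22 to 0.17 for Nsdhl, -0.21 to 0.14 for Dhcr7, -0.17 to 0.01 for Stard4 and -0.21 to 0.07 for Elovl5. The cause was not tested.

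Counts of calls moved more. Over all genes, 579 were called by edgeR, 1268 by DESeq2, 310 and 211 by limma on log2(TPM + 0.5) and log2(TPM + 1), 3999 with a term for MO2 and MC3, 1702 without the pair, 0 to 549 without 1 library, 2 at an adjusted p under 0.05 and 0 under 0.01, though 1885 had an unadjusted p under 0.05. Of the 34 genes, 1 was called by edgeR, 2 with DESeq2's size factors, 3 by DESeq2, 0 by limma at each pseudocount, 14 with the term, 4 without the pair, 0 to 1 without 1 library, and 0 at each stricter threshold. In the sterol arm these counts were 1 by edgeR, 0 by limma, 6 with the term, 2 without the pair, 0 to 1 without 1 library and 0 at each stricter threshold. In the fatty acid arm they were 0 by edgeR, 1 with DESeq2's size factors, 1 by DESeq2, 6 with the term and 1 without the pair. Of the other lipid genes, 3 were called by edgeR, 6 by DESeq2, 0 by limma, 23 with the term, 10 without the pair, 0 to 3 without 1 library and 0 at each stricter threshold. No gene at all was called when MO1, MO2 or MO3 was left out.

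Replicate numbers did not pair the libraries: deviations from the group means correlated at 0.53 for number 1, -0.29 for number 2 and -0.52 for number 3. With the replicate block, 0 of the 34 genes, 0 of the sterol arm and 1 of the other lipid genes were called, and Hsd17b7 was at -1.01 (edgeR adjusted p = 0.185).

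Without the term for MO2 and MC3, edgeR called none of the 34 genes with a log2 fold change near their median standard error of 0.20. The median log2 fold change was 0.07 to 0.35 in the fatty acid arm and -0.15 to 0.09 in the sterol arm without 1 library.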
